A study of Mus musculus with 7 samples.

Results

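Macrophages of injured muscle come from 2 sources, cells present in the tissue before the injury and cells that arose from blood monocytes after it. A set of 10 genes used as markers of these origins was examined in sorted Pax7-GFP cells from mice kept in normocapnia or hypercapnia. Whether these genes separate the 2 origins in this material was not tested. The resident genes were Lyve1, Folr2, Cd163, Mrc1 and Cbr2, and the recruited monocyte genes were Ly6c2, Plac8, Chil3, Vcan and Fn1. They were found by their symbols in a deposited table of 23930 genes. The table held 8 of the 10, with all 5 resident genes and 3 recruited genes (Plac8, Vcan and Fn1). Ly6c2 and Chil3 were not analysed here.

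Resident macrophages of muscle take up debris and bind hyaluronan, and as a group they carry scavenger and lectin receptors on their surface. After injury, monocytes with high Ly6C leave the blood in response to chemokines such as Ccl2, enter the muscle and turn into macrophages, losing their monocyte genes as they mature. Lyve1 is a hyaluronan receptor, Folr2 is folate receptor beta, Cd163 takes up hemoglobin bound to haptoglobin, Mrc1 is the mannose receptor CD206 and Cbr2 is a carbonyl reductase. Plac8 is a small cysteine-rich protein of monocytes and other blood cells. Vcan (versican, a large proteoglycan) and Fn1 (fibronectin) are matrix proteins that monocytes share with fibroblasts.

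There were 3 normocapnia libraries, named NC1, NC2 and NC3, and 4 hypercapnia libraries, named HC1, HC2, HC3 and HC4. All carried an inducible Pax7-GFP reporter, in which Cre under the control of Pax7 removes a stop cassette after tamoxifen, so that GFP stays on in the descendants of satellite cells. Every animal was induced with tamoxifen at 12 weeks of age, spent 4 weeks in its gas condition and was killed at 16 weeks. Hypercapnia mice breathed air with added CO2 in a chamber and normocapnia mice breathed room air. The genotype label reads C57BL/6 for NC1 and rises by 1 with each sample to C57BL/12 for HC4, while the growth protocol names C57/B6 littermates throughout. According to the methods, hind limb muscles had been injured with cardiotoxin, a toxin that destroys myofibers, and both sexes were used. The sample labels mention no injury, and the title of the table carries a time that the methods give only for cultured cells. The labels do not say whether each library is a single mouse, so p-values measure the spread between these libraries. The 4 hypercapnia libraries formed 2 close pairs. The chi-square over its degrees of freedom between whole reads was 24.6 for HC1 and HC2 and 27.3 for HC3 and HC4, against 105 to 528 for any other pair of the 7 libraries. All 4 were kept because the labels list them as separate samples, and SDs and SEs with n = 4 treat them so. Amplified reads are not independent molecules, so these values cannot show whether the libraries of a pair are separate replicates.

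Values are in RPM, the reads of a gene scaled to one library size, from an AmpliSeq panel, which amplifies 1 short stretch of each gene, so a level is compared between libraries and not between genes. Libraries held 14527445 to 23388710 reads. The 8 genes rested on at least 129 reads (Plac8 in NC3) and at most 102959 (Fn1 in NC2), so counting error was small beside the spread between libraries. The labels call the material Pax7+ stem cells, and macrophage genes were present in every library. Pax7, which defines satellite cells, ran from 4.34 RPM (NC3) to 268 RPM (NC1). Lyz2, the lysozyme of myeloid cells, ran from 8354 RPM (NC1) to 29108 RPM (NC3). In such mixed material fewer cells of a type and less RNA per cell cannot be told apart. Xist, the RNA of the inactive X chromosome, was at 445 RPM or more in NC1, NC2, HC1 and HC2, while the Y-linked Ddx3y was at 103 RPM or more in NC3, HC3 and HC4. Libraries with Xist RNA and with Y-linked RNA are kept apart in some of the comparisons that follow.

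Promoter sequences of RefSeq (GRCm38.p6) were matched by symbol for 6 of the 8 genes, as 250 bases before and 50 bases after the transcript start. Those of Plac8, the gene with the clearest group difference, and of Mrc1 and Cbr2, 2 resident genes that were both higher in HC1 and HC2 than in HC3 and HC4, are shown in 5′ to 3′ direction. Capitals mark the core sequence of PU.1, the myeloid transcription factor (GAGGAA or its reverse complement TTCCTC), and letters of the MAF recognition element, bound by a factor of mature macrophages (TGCTGA or TCAGCA).
Plac8: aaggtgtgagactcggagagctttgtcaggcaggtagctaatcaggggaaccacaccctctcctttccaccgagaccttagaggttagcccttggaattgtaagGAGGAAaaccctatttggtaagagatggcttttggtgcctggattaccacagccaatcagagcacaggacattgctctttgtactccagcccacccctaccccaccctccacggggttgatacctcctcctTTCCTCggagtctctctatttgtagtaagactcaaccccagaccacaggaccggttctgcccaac
Mrc1: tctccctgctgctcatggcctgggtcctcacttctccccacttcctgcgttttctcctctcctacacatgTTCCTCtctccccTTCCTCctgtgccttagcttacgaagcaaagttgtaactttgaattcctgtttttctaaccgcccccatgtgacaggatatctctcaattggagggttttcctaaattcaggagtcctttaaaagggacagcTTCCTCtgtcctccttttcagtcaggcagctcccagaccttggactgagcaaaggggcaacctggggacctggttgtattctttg
Cbr2: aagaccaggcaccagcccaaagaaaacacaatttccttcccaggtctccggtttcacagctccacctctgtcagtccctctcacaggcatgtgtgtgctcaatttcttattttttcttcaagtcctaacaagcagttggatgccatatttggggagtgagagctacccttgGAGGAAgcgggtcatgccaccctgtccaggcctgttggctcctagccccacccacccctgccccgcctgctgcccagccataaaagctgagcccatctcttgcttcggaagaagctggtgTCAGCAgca
The Plac8 stretch lies at chr5:100572156-100572455 on the minus strand and holds 2 matches to the PU.1 letters, and a second Plac8 start in the same source held none. The Mrc1 stretch lies at chr2:14229164-14229463 on the plus strand and holds 3, and the Cbr2 stretch lies at chr11:120731972-120732271 on the minus strand and holds 1 of each motif. Folr2, with 2 starts, held 1 match to the MAF letters at each, and the Cd163 and Vcan promoters held 0 of either motif. The PU.1 letters were thus found for 3 and the MAF letters for 2 of the 6 genes. Of 32851 RefSeq promoters of this length, 28.3% held the PU.1 letters and 19.5% the MAF letters, so these matches are common and describe the sequence only.

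The first question was whether hypercapnia shifted the resident genes. None of the 5 was called, where a call by limma on log2(RPM + 1) needs p below 0.05 before adjustment together with more than a 1.5-fold change. This rule called 615 of all 23930 genes (2.57%, with 1.43% higher and 1.14% lower in hypercapnia). Among the 8229 genes averaging 10 RPM or more it called 456 (5.54%), with 3.07% higher and 2.47% lower. The difference was positive for 4 resident genes and negative for Cd163, with a median of 0.37 against 0.13 over the genes averaging 10 RPM or more. In all 5 genes the libraries of the groups overlapped, and in all 5 the lowest library was NC1.

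Cbr2 had a positive difference of more than 1 on the log2 scale. Its level in the order of the library names was 106, 280 and 407 RPM in normocapnia and 777, 804, 268 and 355 RPM in hypercapnia. HC1 and HC2 stood above every normocapnia library, whereas HC3 and HC4 lay among them. The means were 264 ± 151 RPM (SD, n = 3) and 551 ± 279 RPM (SD, n = 4), and the log2 difference was 1.10 with an SE of 0.64 (limma adjusted p = 0.915). Without NC1 it was 0.55.

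Folr2 was at 248, 368 and 1106 RPM in normocapnia and at 804, 853, 339 and 507 RPM in hypercapnia. The highest and the lowest library were both normocapnia (NC3 and NC1), so the groups overlapped fully. The log2 difference of 0.33 had an SE of 0.62 (limma adjusted p = 0.959), and it turned to -0.18 in edgeR and -0.24 in DESeq2 on whole reads. Leaving out NC1 turned it to -0.12, and leaving out NC3 gave 0.95.

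Mrc1 was at 409, 897 and 854 RPM in normocapnia and at 1283, 917, 649 and 779 RPM in hypercapnia. Apart from a low NC1 and a high HC1, the other libraries of the 2 groups lay close together. The log2 difference was 0.37 with an SE of 0.37 (limma adjusted p = 0.915), and 0.00 without NC1.

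Lyve1 was at 204, 346 and 272 RPM against 403, 244, 266 and 682 RPM. HC4 was the highest library and the other 3 hypercapnia libraries lay between 244 and 403 RPM, and the log2 difference was 0.45 with an SE of 0.42 (limma adjusted p = 0.915). Without HC4 it was 0.15. Lyve1 is also carried by lymphatic endothelium. Prox1, a factor of that endothelium, was at 74.2 RPM in NC1 and between 2.66 and 16.3 RPM in the other 6 libraries. HC4, the library with the most Lyve1, held 11.6 RPM. Like Pax7, Prox1 was highest in NC1, followed by HC3 and HC4. Other lymphatic markers ran differently, with Flt4 and Reln highest in HC3 (6.2 and 16.1 RPM) and Pdpn and Mmrn1 highest in NC3 (298 and 1.31 RPM). Prox1 alone thus does not describe lymphatic content, and the source of Lyve1 RNA was not tested.

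Cd163 was the only resident gene with a negative difference. It stood at 198, 760 and 699 RPM in normocapnia and at 338, 356, 262 and 629 RPM in hypercapnia. NC2 and NC3 were above all hypercapnia libraries, and NC1 was below them all. The log2 difference was -0.33 with an SE of 0.58 (limma adjusted p = 0.952), and it ran from -0.95 without NC1 to 0.01 without NC2.

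**Figure D1:**
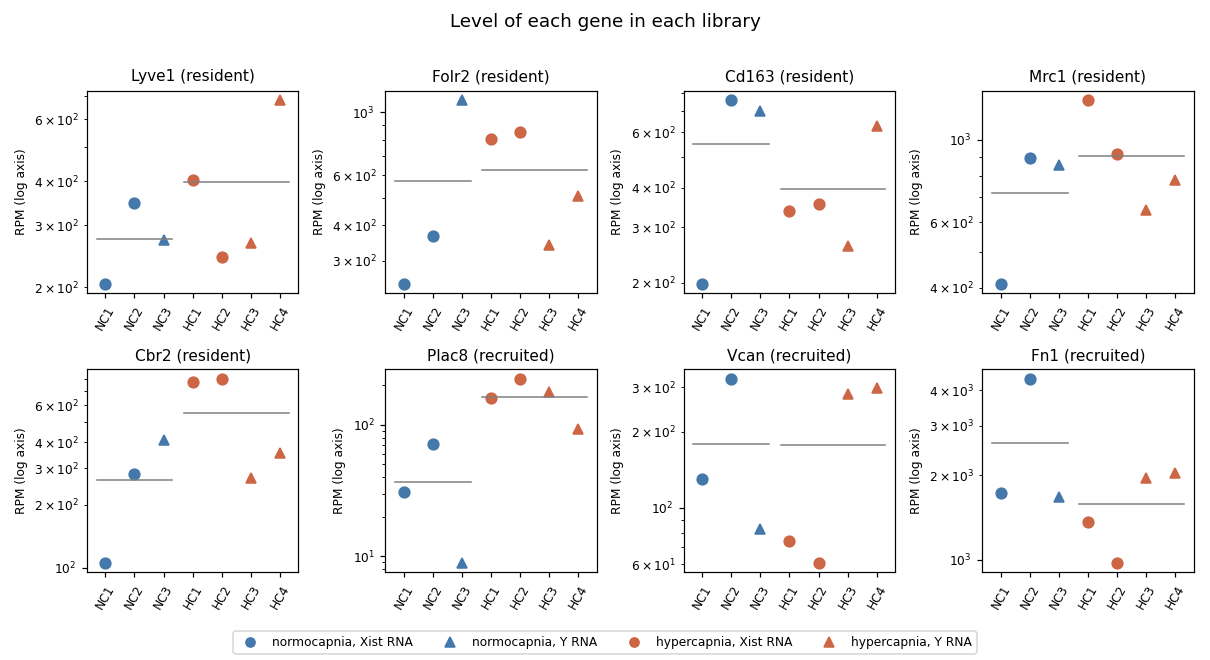
Level of the 8 genes in each library, in RPM on a log axis, with 1 point a library, circles for libraries with Xist RNA, triangles for libraries with Y-linked RNA and grey lines for the group means. NC1 is the lowest library for all 5 resident genes, and Plac8 alone has all hypercapnia libraries (92.4 to 226 RPM) above all normocapnia libraries (8.88 to 71.7 RPM).

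Of the 3 recruited genes, Plac8 was higher in hypercapnia, and Vcan and Fn1 were not called, with negative differences. The median over the 3 was -0.12. Plac8 was at 30.6, 71.7 and 8.88 RPM in normocapnia and at 161, 226, 177 and 92.4 RPM in hypercapnia. All 4 hypercapnia libraries were above all normocapnia libraries, the closest pair being NC2 and HC4. The means were 37.1 ± 31.9 RPM (SD, n = 3) and 164 ± 55.1 RPM (SD, n = 4), a 5.55-fold difference on the log2(RPM + 1) scale (log2 difference 2.47, SE 0.73, 95% interval 0.65 to 4.30). Plac8 was the only one of the 8 genes that was called, and its adjusted p over all genes was 0.909 in limma. An exact permutation test of Plac8 alone, over the 35 ways to assign 7 libraries to groups of 3 and 4, gave p = 0.0571. The two-sided p was taken as the doubled one-sided p, and 0.0571 is the smallest that this form can give. Any gene whose groups do not overlap reaches it, so it adds nothing to that separation. The same exact test gave p between 0.286 and 0.8 for the other 7 genes. Plac8 was also the only one of the 8 genes whose groups did not overlap. Among the genes averaging 10 RPM or more, groups did not overlap in 9.62%, with hypercapnia higher in 4.96%. The size rested on single libraries, with a log2 difference of 1.71 without NC3 and 3.15 without NC2. With each close hypercapnia pair averaged to 1 value, the difference of 2.47 was no longer called (limma adjusted p = 1).

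Fn1 was at 1725, 4402 and 1666 RPM in normocapnia and at 1359, 975, 1959 and 2032 RPM in hypercapnia. NC2 held more than any other library by a wide margin, and the other libraries of the 2 groups overlapped. The log2 difference was -0.62 with an SE of 0.46 (limma adjusted p = 0.915), and -0.16 without NC2.

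Vcan was at 131, 324 and 82.6 RPM in normocapnia and at 74.0, 60.7, 281 and 297 RPM in hypercapnia. Both groups held high and low libraries, and their means were nearly equal at 179 ± 128 RPM (SD, n = 3) and 178 ± 128 RPM (SD, n = 4). The log2 difference was -0.12 with an SE of 0.82 (limma adjusted p = 1), and its 95% interval from -2.18 to 1.93 leaves a wide range of sizes. Its sign changed when NC2 (0.42), HC1 (0.18) or HC2 (0.27) was left out.

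**Figure D2:**
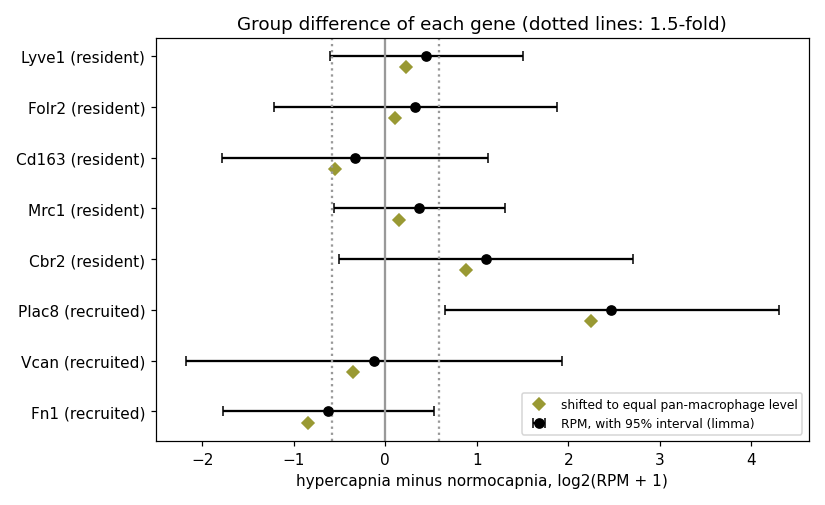
Hypercapnia minus normocapnia for each gene on the log2(RPM + 1) scale, as black points with the 95% interval from limma, and as diamonds after each library was shifted to an equal mean of 12 pan-macrophage genes. Only the interval of Plac8 (0.65 to 4.30) lies wholly on one side of 0, and no diamond changes the side of its point.

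The amount of macrophage RNA in each library was described by 12 pan-macrophage genes. The mean log2(RPM + 1) of these genes was 9.21 ± 0.43 in normocapnia and 9.43 ± 0.24 in hypercapnia (SD, n = 3 and n = 4), lowest in NC1 at 8.75. Of these 12 genes 6 had positive and 6 negative differences (median 0.02), and limma called 2 of them, Adgre1 (the macrophage antigen F4/80, log2 difference 1.31) and Aif1 (an actin-binding protein of macrophages, 1.16), both higher. Their adjusted p was 0.915, and limma called 5.54% of the genes averaging 10 RPM or more. Lyz2 and Fcer1g, a signalling chain of Fc receptors, were both highest in NC3 (29108 and 8203 RPM). When each library was shifted to an equal pan-macrophage mean, the log2 difference of Plac8 was 2.25 (SE 0.60, limma adjusted p = 0.918), still called and with groups that did not overlap. On this scale 5.46% of the genes averaging 10 RPM or more were called, and groups did not overlap in 6.64%. That of Cbr2 was 0.88 (SE 0.45), that of Fn1 -0.84 (SE 0.46) and that of Cd163 -0.55 (SE 0.46). The others lay between -0.35 and 0.23. This scaling moved the median of the 12504 genes averaging 1 RPM or more from 0.16 to -0.06, and the calls over all genes from 343 higher and 272 lower to 126 higher and 453 lower. The median was 0.04 after median-of-ratios scaling and -0.01 after quantile normalization.

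The balance of the 2 sets was then described in each library, as the mean log2(RPM + 1) of the 5 resident genes minus that of Plac8, Vcan and Fn1. The balance was 0.15, 0.02 and 2.42 in normocapnia and 1.34, 1.23, -0.47 and 0.57 in hypercapnia. Since amplicons differ in yield, the value 0 has no meaning of its own and only differences between libraries are read. The balance was highest in NC3 and lowest in HC3, and the groups overlapped. The group means of 0.86 ± 1.35 and 0.67 ± 0.83 (SD, n = 3 and n = 4) differed by less than either SD. The resident score alone was 8.62 ± 0.78 in normocapnia and 9.00 ± 0.42 in hypercapnia, and the recruited score 7.76 ± 1.05 and 8.33 ± 0.46. Without NC3 the difference of the balance was 0.59, against -0.19 with all libraries. No test was made on these scores.

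**Figure D3:**
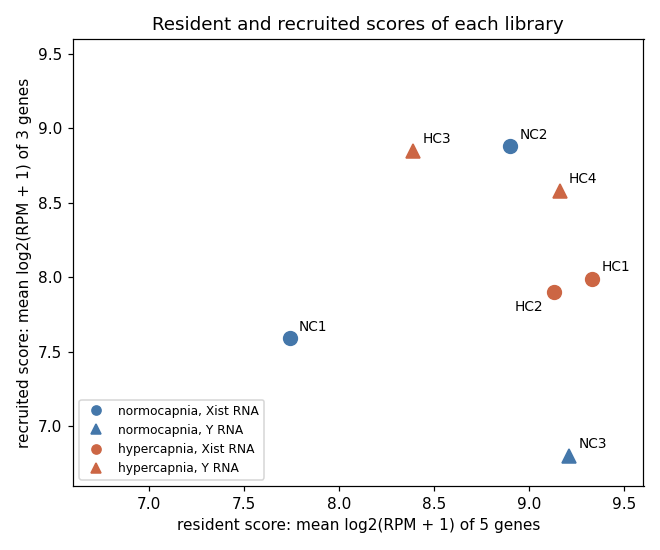
Resident score (x axis) against recruited score (y axis) in each library, both as mean log2(RPM + 1), with blue for normocapnia, orange for hypercapnia, circles for Xist RNA and triangles for Y-linked RNA. NC1 has the lowest resident score (7.74) and NC3 the lowest recruited score (6.80), and the hypercapnia libraries lie at resident scores from 8.39 to 9.33.

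Within hypercapnia, the 2 libraries with Xist RNA were set against the 2 with Y-linked RNA. HC1 and HC2, which hold Xist RNA, were above HC3 and HC4, which hold Y-linked RNA, for Cbr2 (791 against 311 RPM on average), Folr2 (828 against 423 RPM) and Mrc1 (1100 against 714 RPM). They were below them for Vcan (67.3 against 289 RPM) and Fn1 (1170 against 2000 RPM). For Lyve1, Cd163 and Plac8 the pairs overlapped. Thus 5 of the 8 genes were apart between the pairs, beside 68.4% of the genes averaging 10 RPM or more (28.2% with HC1 and HC2 above and 40.3% with them below), and 2 (Cbr2 and Vcan) were apart by more than 1 on the log2 scale, beside 10.3%.

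The group difference was therefore also taken within each kind of library. With Xist RNA (2 normocapnia and 2 hypercapnia libraries) it was 2.19 for Cbr2, 1.45 for Folr2 and 0.84 for Mrc1, and -1.60 for Vcan and -1.26 for Fn1. With Y-linked RNA (1 normocapnia and 2 hypercapnia libraries) the values were -0.40, -1.41 and -0.26, and 1.79 and 0.26. All 5 thus changed sign between the 2 kinds of library. The share of all genes that did so was not counted, so this number is not read as a trait of these genes. Plac8 was positive in both, at 2.0 (not past the threshold in these 4 libraries) and 3.71, and Lyve1 was positive in both as well, at 0.24 and 0.65. Cd163 was negative in both (-0.16 and -0.78). As a description, an interaction term over all 7 libraries put the difference between the 2 effects at -2.87 for Folr2 (SE 0.49, limma adjusted p = 0.0875), 3.40 for Vcan (SE 0.80, limma adjusted p = 0.134) and -2.59 for Cbr2 (SE 0.87, limma adjusted p = 0.231). Before adjustment these 3 of 8 genes passed 0.05, beside 37.1% of the genes averaging 10 RPM or more in the same test, and after adjustment none of the 8 did, beside 3.2% of all genes. The share among the 8 is near the background, so it is no result about these genes. The effects within Y-linked libraries and the interaction rest on NC3, the single normocapnia library with Y-linked RNA, so what is particular to that library cannot be told apart from the kind of library.

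**Figure D4:**
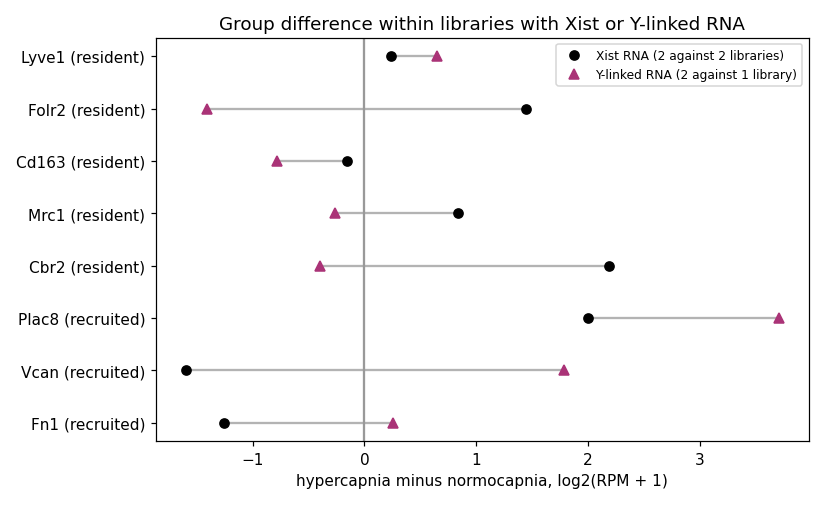
Hypercapnia minus normocapnia on the log2(RPM + 1) scale within libraries with Xist RNA (circles, 2 against 2) and within libraries with Y-linked RNA (triangles, 2 hypercapnia against 1 normocapnia). Circle and triangle fall on opposite sides of 0 for Folr2, Mrc1, Cbr2, Vcan and Fn1, and on the same side for Lyve1, Cd163 and Plac8.

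Other genes of the same programs were counted to place the 8 genes. Among the 8229 genes averaging 10 RPM or more, 4900 had positive and 3329 negative differences (median 0.13), and 5.54% were called. These numbers stand beside the counts of each list that follows. Of 17 further resident macrophage genes in the table, 13 had positive and 4 negative differences (median 0.44), and limma called 1, which was higher. This was Gas6, a ligand of the receptors that clear dead cells, at 95.1, 60.1 and 82.7 RPM in normocapnia and 229, 180, 138 and 182 RPM in hypercapnia (log2 difference 1.19, SE 0.23, adjusted p = 0.65 in limma). Stab1, a scavenger receptor, was at 298, 490 and 1179 RPM against 1881, 1797, 727 and 1050 RPM, with HC1 and HC2 high as for Cbr2. Sepp1, the selenium carrier selenoprotein P, was at 20854 RPM in NC3 and between 2087 and 5266 RPM in the other 6 libraries. Pf4, a chemokine of macrophages and platelets, was lowest in NC1 (342 RPM), as were the 5 resident genes of the set.

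Of 17 further monocyte genes, 10 had positive and 7 negative differences (median 0.18), and 1 was called, again higher. Ms4a4c, a membrane protein of monocytes, was at 48.3, 73.1 and 24.8 RPM in normocapnia and 179, 204, 175 and 119 RPM in hypercapnia (log2 difference 1.88, SE 0.40, adjusted p = 0.712 in limma). Thbs1 (thrombospondin 1, a matrix protein) and F13a1 (a transglutaminase subunit) had the highest mean RPM of the list and overlapped between the groups. Fpr2, a receptor for formylated peptides, was at 0.847, 1.63 and 2.89 RPM against 1.20, 0.653, 0.812 and 0.406 RPM, with overlapping groups. NC3, the library with the least Plac8, was the lowest library for 7 of these 17 genes and the highest for 3.

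For each gene, the gene with the most similar course over the 7 libraries was sought among 8221 others averaging 10 RPM or more, by Pearson correlation of log2(RPM + 1). These values describe 7 points that share their libraries and carry no test. Ms4a4c was closest to Plac8 (r = 0.989), and F10, the gene of coagulation factor X and one of the listed monocyte genes, was closest to Vcan (r = 0.980). Dhrs9, a dehydrogenase, was closest to Cbr2 (r = 0.981), Vps13c to Folr2 (0.984), Hsd17b12 to Mrc1 (0.973), Serpina3n to Fn1 (0.964), Slc27a4 to Cd163 (0.943) and Hace1 to Lyve1 (0.932).

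Ligands, partners and enzymes that act with the 8 genes were counted next. Of 26 genes in the table, 17 had positive and 9 negative differences (median 0.36), and limma called 1. Hyal1, which degrades the hyaluronan that Lyve1 binds, was at 6.74, 6.29 and 2.34 RPM in normocapnia and 17.2, 27.4, 13.8 and 12.3 RPM in hypercapnia (log2 difference 1.64, SE 0.41, adjusted p = 0.827 in limma). Itgb1, a subunit of the integrins that bind fibronectin, had groups apart in the other direction, at 638, 466 and 640 RPM against 398, 348, 441 and 390 RPM, but stayed under the fold threshold (log2 difference -0.55, SE 0.14). Such groups, with hypercapnia lower, were found in 4.67% of the genes averaging 10 RPM or more. Cd44, another hyaluronan receptor, was at 1307, 2082 and 3267 RPM against 1109, 1168, 1554 and 1471 RPM. Ccl2, the chemokine that recruits monocytes, was at 451 RPM in NC1 and between 1848 and 2701 RPM in the other 6 libraries.

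Near copies can share reads with a gene. Cd163l1 stayed at or below 1.51 RPM and Cbr3 at or below 6.48 RPM. Cbr1 reached 20.3 RPM (HC1) and Mrc2, a receptor of the same family as Mrc1, 43.0 RPM (NC1). The other 3 near copies in the table belong to the families of Ly6c2 and Chil3. They were Ly6a (48.7 to 135 RPM), Chil1 (0.275 to 2.81 RPM) and Chil4, which was at 0 in all libraries but HC3. Of the 7 near copies limma called 0. Folr1, a relative of Folr2 counted with the partners, stayed at or below 0.58 RPM.

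Markers of other cell types moved between the libraries too. Summed over 12 satellite cell markers, the level was 106 to 3833 RPM in normocapnia, highest in NC1, and 386 to 1277 RPM in hypercapnia, and limma called 0 of the 12. Des, Myog, Myod1 and Itga7, genes of the muscle lineage, were each highest in NC1 and lowest in NC3. Fibro-adipogenic markers, 11 genes of matrix-forming cells that also make Vcan and Fn1, summed to 1580 to 3630 RPM and 1628 to 3918 RPM, with 0 called. Their defining gene Pdgfra was at 3.37 to 13.7 RPM. Dcn, a matrix proteoglycan, and Gsn, an actin-severing protein, were highest in HC4 (1356 and 987 RPM), and Col1a1, a collagen chain, was highest in NC1 (908 RPM). Endothelial markers summed to 92.2 to 267 RPM in normocapnia, to 84.1 and 66.4 RPM in HC1 and HC2, and to 633 and 471 RPM in HC3 and HC4, with 0 of 10 called. Pecam1, Cdh5, Kdr and Vwf, all genes of vessel walls, were each highest in HC3. Of 5 lymphatic endothelial markers (144 to 311 RPM and 144 to 300 RPM) limma called 0. Pdpn was at 136 to 298 RPM, and Mmrn1 was at 0.684 to 1.31 RPM in normocapnia and 0.050 to 0.406 RPM in hypercapnia. Of 12 neutrophil markers 1 was called, the collagenase Mmp8 (log2 difference 1.25, SE 0.30), and the sums were 377 to 1486 RPM and 263 to 551 RPM. Mmp9, a gelatinase, was highest in NC2 (1377 RPM) and Csf3r, the receptor of the growth factor of granulocytes, in HC3 (118 RPM). Ly6g, which defines neutrophils, was at or below 0.125 RPM in all libraries. The sums of satellite cell, fibro-adipogenic, endothelial, lymphatic endothelial and neutrophil markers, and those of dendritic cell markers and of the further monocyte and patrolling monocyte genes, were all higher in HC3 and HC4 than in HC1 and HC2, as Vcan and Fn1 were. Sums of the further resident macrophage genes ran the other way, at 11870 and 11620 RPM in HC1 and HC2 against 6119 and 7610 RPM in HC3 and HC4. So did the pan-macrophage sums, at 27530 and 24410 RPM against 23660 and 23270 RPM. Cbr2, Folr2 and Mrc1 had the same direction as these macrophage lists. The part of any cell type in these results was not tested.

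**Figure D5:**
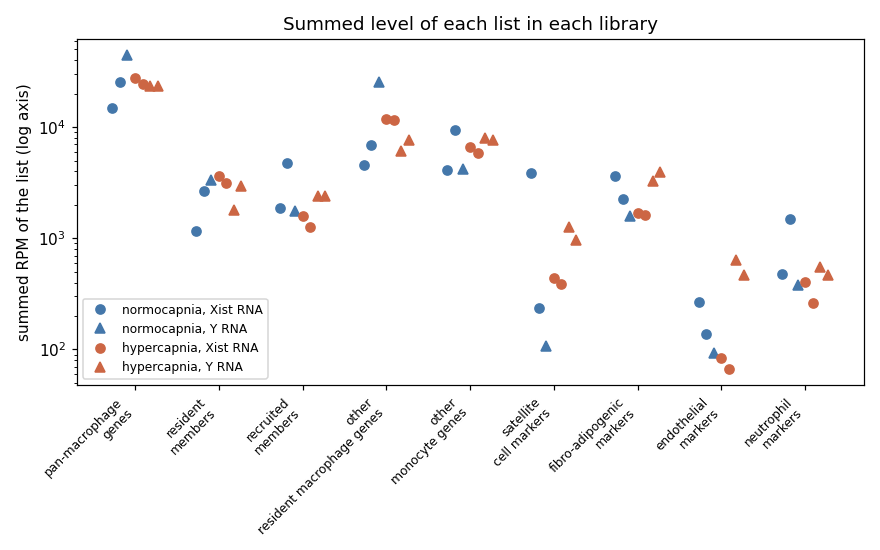
Summed RPM of each gene list in each library on a log axis, with blue for normocapnia, orange for hypercapnia, circles for Xist RNA and triangles for Y-linked RNA. Endothelial sums are 633 and 471 RPM in HC3 and HC4 against 84.1 and 66.4 RPM in HC1 and HC2, and satellite cell sums are highest in NC1 (3833 RPM).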

How the data were processed

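RNA of sorted Pax7-GFP cells was measured in 3 normocapnia and 4 hypercapnia libraries, grouped by the treatment label. Sequencing of AmpliSeq libraries was done by the authors on the Ion S5 system, and the deposited unit is RPM. The build is not given in the sources used here, nor is the aligner, and the submitters' processing notes name the Transcriptome Analysis Console. Because values are whole multiples of 1 read within 0.05 reads for 100% of values, whole reads were recovered. Columns of no sample numbered 0. All 23930 genes entered 1 two-sided limma fit (version 3.58.1, R 4.3.3) of log2(RPM + 1), unfiltered and adjusted by Benjamini-Hochberg. Thresholds follow the study. The fits were tested on simulated data. Named were all members, their near copies, for each list the 2 genes with the highest mean and the 2 with the smallest p, and the gene closest to each member, of which 1 gene is not reported here. Pax7, Pdgfra, Ly6g, Folr1, Flt4 and Reln were named besides as defining or related genes, chosen after their values were seen. Members and lists were chosen with earlier results of these data known. Alternatives were pseudocounts of 0.1 and 5 RPM, a filter, other scalings, edgeR 4.0.16 (802 genes called), DESeq2 1.42.0 (1304), leaving out each library and a replicate block. The exact permutation test, averaged pairs and splits by Xist or Y-linked RNA were added after seeing the data. Promoters came from RefSeq. Proteins were not used here.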

Additional observations from a re-analysis of the deposited data

Results flagged for a closer look

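For 3 of the 8 genes the interaction of group with Xist or Y-linked RNA passed an unadjusted threshold of 0.05 in limma. The effect in Y-linked minus that in Xist libraries was -2.87 for Folr2, -2.59 for Cbr2 and 3.40 for Vcan on the log2 scale, with adjusted p of 0.0875, 0.231 and 0.134, so none passed adjustment over all genes. Of the genes averaging 10 RPM or more, 37.1% met the same threshold, and 3.2% of all genes did so after adjustment. The share of the 8 is near that of all such genes. Every one of these values rests on NC3 as the only normocapnia library with Y-linked RNA, so a difference between the kinds of library and what is particular to NC3 cannot be told apart. Dixon ratios among the 4 hypercapnia libraries ran from 0.068 (Vcan) to 0.743 (Cd163) against a critical value of 0.829, and since these libraries form 2 close pairs, the ratio cannot show whether 1 of them stands apart.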

How the results depend on the processing

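The number of the 8 genes called was 1 under all of the 21 alternatives but 1, and 0 with each close hypercapnia pair averaged (Plac8 2.47, limma adjusted p = 1, and 218 of all genes called). It was Plac8 in the others apart from the libraries with Xist RNA alone, where Folr2 was called (1.45) and Plac8 was not (2.0, limma adjusted p = 0.552). The log2 difference of Plac8 ran from 1.71 to 3.15, and its adjusted p from 0.16 (DESeq2) to 1 (averaged pairs). Lyve1, Mrc1, Cbr2 and Fn1 kept their sign under the 21 alternatives, with values down to 0.00 for Mrc1. The values within Y-linked libraries, which have no test and are not among the 21, turned Mrc1 to -0.26, Cbr2 to -0.40, Fn1 to 0.26, Folr2 to -1.41 and Vcan to 1.79. Folr2 turned to -0.18 in edgeR, -0.12 in edgeR without a filter and -0.24 in DESeq2. Over the fits that leave out 1 library, Folr2 ran from -0.12 to 0.95, Cd163 from -0.95 to 0.01 and Vcan from -0.56 to 0.42. The number of all genes called was 615 and moved to 1049 in edgeR without a filter, 1304 in DESeq2, 1210 with Xist or Y-linked RNA as a covariate, 1015 in the libraries with Xist RNA, and between 376 (without HC2) and 1990 (without NC1) when 1 library was left out. After adjustment limma on all 7 libraries called 0 genes (1114 at an unadjusted p under 0.05), edgeR 0 and DESeq2 29, while limma called 8 without NC1, 1 without NC3 and 0 when any other library was left out. In edgeR 294 genes were higher and 508 lower. The difference of the balance of the sets ran from -0.61 to 0.59 over left-out libraries. The labels name no pairing of same-numbered libraries. The correlation of their deviations from the group means was -0.38, 0.51 and 0.03 for numbers 1 to 3. For NC2 it was 0.51 with HC2 and 0.44 with HC1, its close partner, so these values cannot settle whether libraries were paired. With the replicate block 598 genes were called, and the log2 difference of Plac8 was 2.72 (limma adjusted p = 0.934). The causes of these changes were not tested. Each value of the 8 genes rests on 129 reads or more.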

Other observations

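Genes of patrolling monocytes, the second kind of blood monocyte, had positive differences in 6 of 7 and a negative one in 1 (median 0.62), and limma called 1. Over all 23930 genes, 12843 had positive and 8644 negative differences, and 2.57% were called. Cd300e, a receptor of these cells, was at 0.491, 0.257 and 0.069 RPM in normocapnia and 0.942, 2.11, 1.25 and 1.22 RPM in hypercapnia (log2 difference 0.89, SE 0.20, adjusted p = 0.729 in limma), where the NC3 value is 1 read. Nr4a1, the factor that these monocytes depend on, was at 800, 1743 and 190 RPM against 669, 617, 1152 and 920 RPM, with NC3 lowest. Eno3, a muscle enolase that these monocytes also carry, was highest in NC1 (371 RPM), and Treml4, a receptor, was at 0.826 to 8.62 RPM. NC3 was the lowest library for all 7 of these genes. Of 9 dendritic cell markers limma called 0, and the integrin Itgax was highest in NC1 (216 RPM), as was the chemokine receptor Ccr7 (49.9 RPM). Cd209a and Siglech were highest in HC3 (27.4 RPM) and HC4 (33.6 RPM). Of 9 lymphocyte markers limma also called 0, and their sums ran from 10.8 to 22.9 RPM, with Cd79b at 7.14 to 15.8 RPM and Klrb1c at 0.344 to 7.36 RPM. The Y-linked Kdm5d was at 3.65 to 12.6 RPM in NC3, HC3 and HC4 and at or below 0.178 RPM in the other libraries.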
